A study of Mus musculus with 4 samples.

Results

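The 85 cytosolic ribosomal protein genes were examined in CD69+DP thymocytes, the CD4+CD8+ thymocytes that carry CD69 after a T cell receptor signal. Members were the listed genes whose symbol is Rpl or Rps with a number, together with *Rpsa*, *Rplp0*, *Rplp1*, *Rplp2* and *Fau*. Symbols of pseudogenes and of S6 kinases were left out. The rule gave 85 of 24421 listed genes, 51 for the large subunit and 34 for the small subunit. RNA was sequenced from 2 control samples (Foxa1fl/flFoxa2fl/fl CD4Cre-) and 2 Foxa1/2cKO samples (the same floxed alleles with the CD4Cre transgene) of C57BL/6 mice aged 6 weeks. Both groups therefore carry the floxed *Foxa1* and *Foxa2* alleles, and the Foxa1/2cKO group alone carries Cre, which the *Cd4* promoter drives from the DP stage onwards. Each sample was sorted separately, from different mice. The question was whether loss of the transcription factors Foxa1 and Foxa2 changed the RNA of the ribosomal proteins.

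The values are FPKM, that is, fragments counted per kilobase of a gene's length and divided by a scaling total for each sample. This total did not follow the reads recovered from the values alike in all samples. It was 11093927 in Foxa1/2cKO 2, below its at least 11258979 reads on listed genes. In control 1 it was 14968316, above the smallest number of 14476744 reads, and control 2 and Foxa1/2cKO 1 were alike in this. Scaled to recovered reads, the median log2 difference of the members between the groups was -0.11, against -0.08 as deposited. Levels of genes that share sequence with other genes are less certain than those of other genes. At least 10392256 to 14476744 reads fell on listed genes in each sample. *Foxa1* and *Foxa2* were listed at 0 in all 4 samples, so these values do not check the genotypes. All 13 markers of CD69+DP thymocytes were measured, with *Cd4* between 342 and 446 FPKM. Across the 10776 genes tested, the log2 values of the Foxa1/2cKO samples differed from each other with an SD across genes of 0.405, against 0.198 between the controls, and the summed FPKM of 8 cycling markers was 152 in Foxa1/2cKO 2 against 419 to 479.9 in the other samples. Results are therefore given with and without Foxa1/2cKO 2. In RNA from sorted cells, fewer cells of one kind and less RNA per cell cannot be told apart.

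Each cytosolic ribosome has a large (60S) and a small (40S) subunit, and each ribosomal protein is normally present once per ribosome, except the stalk proteins. The proteins have to be made in matched amounts, and many of their mRNAs start with a C followed by a run of pyrimidines, the 5′ terminal oligopyrimidine (TOP) motif, through which growth signals acting by mTOR and Larp1 adjust their translation. Lymphocytes increase ribosome production when they are activated or divide, and most resting thymocytes are small cells with little growth.

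The start sites were read from RefSeq promoters of GRCm38.p6, the assembly also named mm10, and 64 of the 85 members were matched by symbol. A run of at least 5 pyrimidines on the sense strand, counted from a C within 5 bases of an annotated start, was found for 30 of the 64 members (46.9%) and for 21.2% of all 27025 genes in the table. The following windows hold the 15 bases before and the first 15 bases from the annotated start, 5′ to 3′ on the gene's own strand. They are shown to compare members in which such a run was counted (in capitals) with members in which none was counted.
Rps9, chr7:3704026-3704055, + strand: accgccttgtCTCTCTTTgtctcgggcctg
Rplp2, chr7:141447636-141447665, + strand: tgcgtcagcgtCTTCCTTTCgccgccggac
Rps6, chr4:86857353-86857382, - strand: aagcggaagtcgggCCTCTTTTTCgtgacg
Fau, chr19:6057932-6057961, + strand: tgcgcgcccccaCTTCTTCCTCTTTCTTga
Rpl35a, chr16:33056467-33056496, + strand: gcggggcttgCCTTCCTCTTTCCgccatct
Rps27l, chr9:66946071-66946100, + strand: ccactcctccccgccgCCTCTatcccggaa
Rplp0, chr5:115559452-115559481, + strand: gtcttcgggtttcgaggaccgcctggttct
Rpl5, chr5:107900513-107900542, + strand: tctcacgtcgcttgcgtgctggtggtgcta
Rps15, chr10:80292416-80292445, + strand: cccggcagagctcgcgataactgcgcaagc
The last 3 windows have no such run at the annotated start. Runs that began outside the 5 bases were not counted, as in *Rpl4* and *Rpl13*, where a run lies further before the start. A member with no run counted may therefore still have the TOP motif. *Rpl35a* has 3 annotated starts and *Rps27l* has 2, and in each the run stood at the start shown. In the 250 bases before the start, on either strand, the letters CCGGAAG, which ETS factors bind, were present for 19 of 64 members (29.7%) and 7.83% of all genes. The forkhead letters TGTTTAC were present for 1 member, *Rpl41* (1.56%), and for 3.54% of all genes, and the letters TATAAA for 4 members (6.25%) and 14.3% of all genes. None of these 3 motifs overlaps another in its letters. Members with a pyrimidine run counted had a median log2 difference between the groups of -0.06 (30 tested members). Those with none counted had a median of -0.08 (30 tested members), and the 2 sets do not separate TOP from other mRNAs.

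Ribosomal protein genes were among the most abundant RNAs of these cells. They made up 29 of the 50 genes, 50 of the 100 genes and 64 of the 200 genes with the highest mean FPKM. Their summed FPKM was 43500.1 and 45106 in the control pair, 44444 in Foxa1/2cKO 1 and 39528 in Foxa1/2cKO 2. This was 11.7%, 12.1%, 12.1% and 10.3% of the FPKM of all listed genes. In summed FPKM Foxa1/2cKO 1 lay between the controls, and in both measures Foxa1/2cKO 2 lay below the other 3 samples. The control mean was 44303 ± 1136 and the Foxa1/2cKO mean 41986 ± 3476 (SD, n = 2 per group), so the difference between the means was smaller than the spread within Foxa1/2cKO. An exact two-sided permutation test of 2 against 2 samples cannot give a p under 0.333, and none was made of the sum.

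Levels differed widely between members and were similar between samples. The mean FPKM lay between 0 and 1744, the median being 450.5 and the quartiles 229 and 767. A mean of at least 100 was reached by 74 of 85 members and at least 1000 by 11, while 8 lay under 10. The median was 349 for the large subunit and 548 for the small subunit, although the ratio of the summed small to the summed large subunit FPKM was 88.3%, 88.9%, 89.0% and 87.4% in control 1, control 2, Foxa1/2cKO 1 and Foxa1/2cKO 2, respectively. The order of the 81 tested members was close to the same in every pair of samples, with a Spearman rho of 0.991 to 0.998 across members, which share their libraries and gene lengths.

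**Figure D1:**
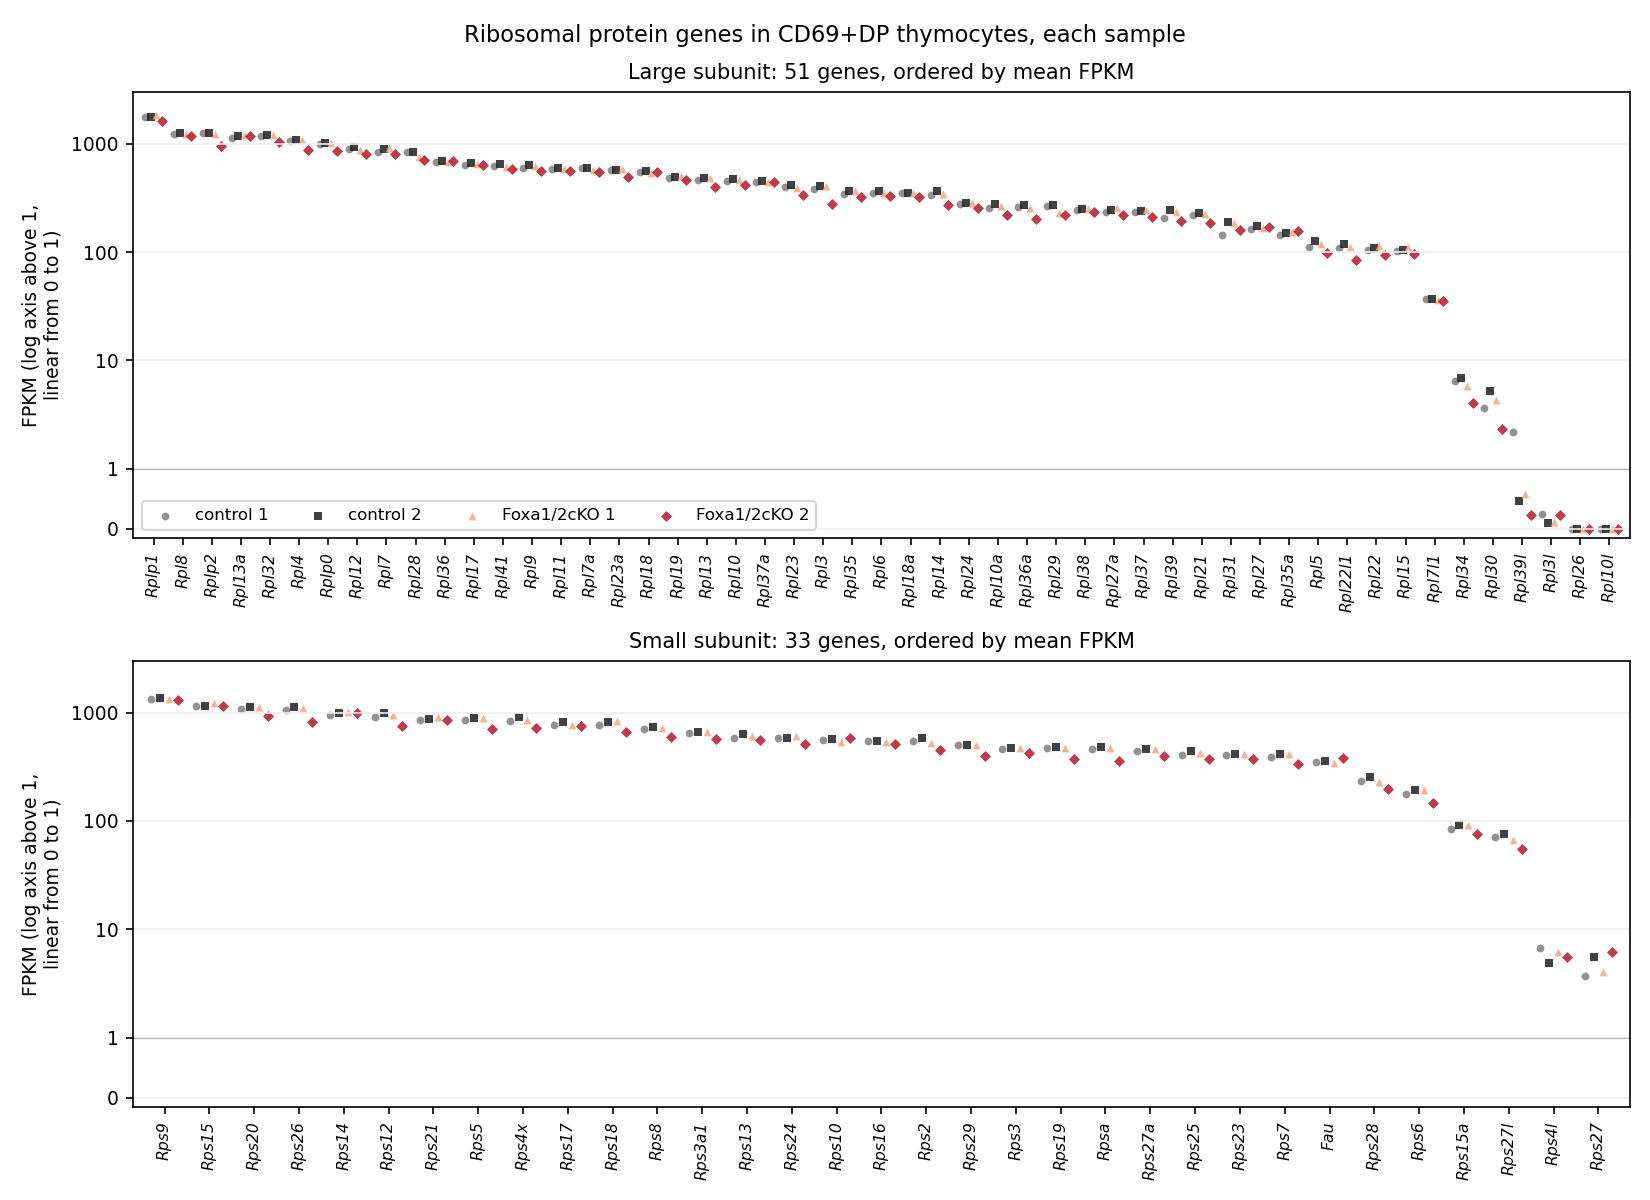
FPKM of ribosomal protein genes (horizontal axis, ordered by mean) in the 4 samples, with the 51 large subunit genes above and 33 of the 34 small subunit genes below. The vertical axis is logarithmic above 1 and linear from 0 to 1, each symbol is 1 sample, and 8 genes with a mean under 10 FPKM stand apart from the rest.

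The highest level belonged to *Rplp1*, which encodes an acidic protein of the stalk that recruits elongation factors. Its FPKM was 1755 and 1767 in the control pair, 1832 in Foxa1/2cKO 1 and 1620.2 in Foxa1/2cKO 2. For this gene the groups overlapped, with Foxa1/2cKO samples at both ends. *Rplp2*, the other acidic stalk protein, had 1249.8 and 1266 FPKM in the control pair, 1236 in Foxa1/2cKO 1 and 959.6 in Foxa1/2cKO 2. Both Foxa1/2cKO samples were below both controls, but the distance between them was far larger than the gap from Foxa1/2cKO 1 to the controls, and the log2 difference was -0.21 (SE 0.15). *Rplp0*, which anchors the stalk to the large subunit, had 998 and 1018 FPKM in the control pair and 1009 and 861 in the Foxa1/2cKO pair. *Rplp1* was at 174% to 188% of *Rplp0* in each sample, and *Rplp2* at 111% to 125%, with its lowest share in Foxa1/2cKO 2.

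Together with *Rplp1* and *Rplp2*, the 5 most abundant large subunit genes were *Rpl8*, *Rpl13a* and *Rpl32*. *Rpl8*, a protein close to the peptidyl transferase centre, had 1224, 1248, 1238 and 1179 FPKM in control 1, control 2, Foxa1/2cKO 1 and Foxa1/2cKO 2, respectively. With samples in that order *Rpl13a* had 1139, 1182.5, 1191 and 1175 FPKM, and *Rpl32* had 1176, 1205, 1195 and 1036 FPKM. For all 3 genes the groups overlapped, and Foxa1/2cKO 2 was the lowest sample for *Rpl8* and *Rpl32*.

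Among the small subunit genes, *Rps9*, a protein of the mRNA entry side, was the highest, with 1343 and 1362 FPKM in the control pair and 1338 and 1316 in the Foxa1/2cKO pair. The 2 groups did not overlap, but the log2 difference was -0.03 (SE 0.09). *Rps15*, which lies near the decoding site, had 1151 and 1154.6 FPKM in the control pair and 1220.1 and 1155.2 in the Foxa1/2cKO pair, so both Foxa1/2cKO samples were above both controls, one of them by less than 1 FPKM. *Rps20* overlapped between the groups, with 1075 to 1134 FPKM in the controls and 938 to 1139 in Foxa1/2cKO. *Rps26*, at the mRNA exit channel, had 1058 and 1134 FPKM in the control pair, 1111 in Foxa1/2cKO 1 and 821 in Foxa1/2cKO 2. These values of *Rps26* put 1 Foxa1/2cKO sample between the controls and the other well below them.

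In the comparison of Foxa1/2cKO with control, 81 of 85 members passed the filter on low values (an FPKM of 1 or more in 2 samples or more) and were tested with limma on log2(FPKM + 1) together with all other genes. No member had an adjusted p under 0.05 with Benjamini-Hochberg adjustment, and 1 of the 10776 genes did (0.00928%). At an unadjusted p under 0.05, no member was higher and 1, *Rpl29*, was lower in Foxa1/2cKO. This is 1.23% of the members tested, against 2.15% of all genes lower and 2.39% higher at that threshold. Both Foxa1/2cKO samples were below both controls for 17 members (21.0%), against 17.8% of all genes, and above both for 2, *Rpl35a* and *Rps15* (2.47%), against 18.9%. The share of members below both controls was thus near that of all genes.

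The fitted log2 differences of the members were small, and most were negative. Their median was -0.08, against 0.01 over all genes tested, and they ranged from -0.39 to 0.11. Of the 81 members, 70 had a lower mean in Foxa1/2cKO (86.4%), against 48.7% of all genes. With a correction for transcript length the count was 58 of 81 (71.6%) and the median -0.05. An absolute log2 difference under 0.1 was found for 51 members and one of 0.25 or more for 4. The median SE of a member was 0.11, at which a 95% interval reaches 0.29 to either side of the estimate. The large and small subunit did not separate, with a median of -0.07 over 47 genes and of -0.08 over 34 genes. Between the controls alone the median log2 difference of the members was 0.05, and 74 of the 81 were higher in control 2.

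The lower means came from Foxa1/2cKO 2. It was the lowest of the 4 samples for 68 of 81 members (84.0%), against 33.3% of all genes, and was below the control mean for 72 members, against 46.6% of all genes. Foxa1/2cKO 1 was below the control mean for 37 members (45.7%), against 52.1% of all genes. The median log2 difference from the control mean was 0.0027 in Foxa1/2cKO 1 and -0.17 in Foxa1/2cKO 2. When Foxa1/2cKO 2 was left out, the median difference between the groups was 0.0027, no member had an adjusted p under 0.05 (0.13% of all genes were lower at that threshold), and *Rpl28* and *Rpl29* had an unadjusted p under 0.05 in limma (2.47%, against 17.5% of all genes).

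**Figure D2:**
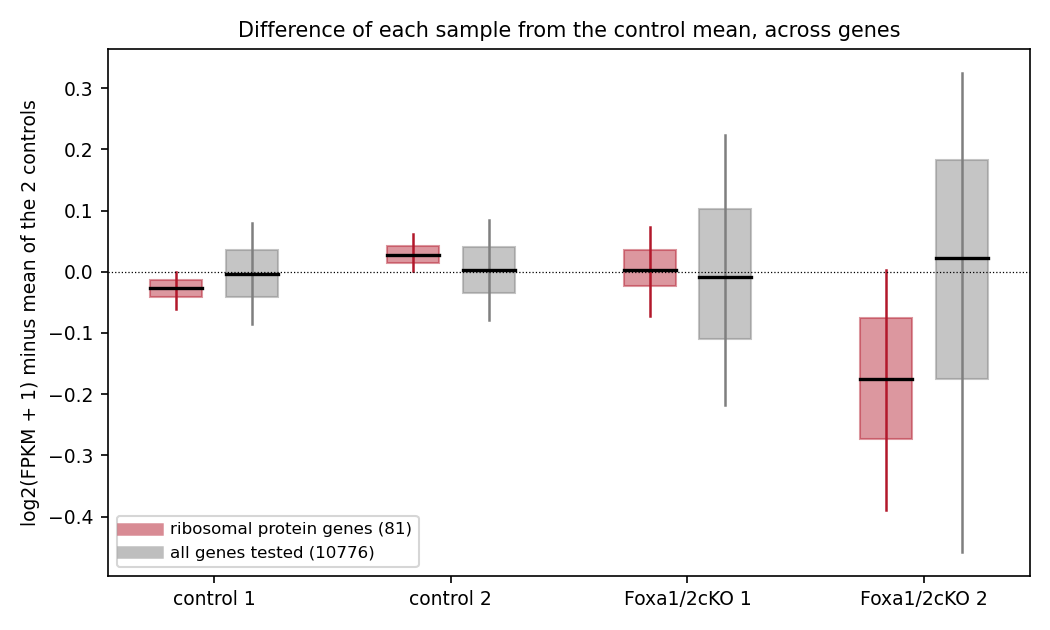
Difference of each sample from the mean of the 2 controls on the log2(FPKM + 1) scale (vertical axis) for the 81 tested ribosomal protein genes and all 10776 tested genes. Boxes span the quartiles, lines the 10th to the 90th percentile and black bars the median, which for ribosomal protein genes is -0.03, 0.03, 0.00 and -0.17 from left to right.

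When Foxa1/2cKO 1 was left out instead, so that Foxa1/2cKO 2 alone stood for its group and was assumed to vary like the controls, 35 of 81 members had an adjusted p under 0.05 by limma with Benjamini-Hochberg adjustment. All 35 were lower, which is 43.2% of the members, against 11.3% of all genes, and they were 17 of 47 large and 18 of 34 small subunit genes. At an unadjusted p under 0.05 there were 52 members (64.2%), against 39.2% of all genes. This compares 1 library with the controls and not the genotypes. Among members with a mean of at least 10 FPKM, the difference of Foxa1/2cKO 2 from the control mean went from -0.49 for *Rpl3* to 0.11 for *Fau*. *Rpl3*, a protein of the peptidyl transferase centre, had 381 and 405 FPKM in the control pair, 403 in Foxa1/2cKO 1 and 279.8 in Foxa1/2cKO 2.

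*Rpl29* (chromosome 9, 106428889 to 106431568), a small basic protein of the large subunit, was the one member with an unadjusted p under 0.05. Its FPKM was 266 and 271 in the control pair and 230.3 and 219.8 in the Foxa1/2cKO pair. The groups did not overlap, and unlike most members both Foxa1/2cKO samples were about equally far from the controls. The log2 difference was -0.25 (SE 0.08, n = 2 per group), with a limma p of 0.0329 before and 0.863 after Benjamini-Hochberg adjustment. Leaving out each sample in turn gave -0.29 to -0.22. Of the 50-base stretches of its transcript, 66.8% were also found in other annotated genes, of which there were 84.

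The members with the lowest fitted differences beside *Rpl29* were *Rpl34*, *Rpl30*, *Rps27l* and *Rpl36a*. *Rps27l*, a paralogue of *Rps27* that p53 is known to induce, had 71.7 and 75.7 FPKM in the control pair and 66.3 and 54.8 in the Foxa1/2cKO pair. The groups did not overlap, and the log2 difference was -0.29 (SE 0.12), with an adjusted p of 0.863 by limma with Benjamini-Hochberg adjustment. *Rpl36a* had 258 and 274 FPKM in the control pair, 256 in Foxa1/2cKO 1 and 200.0 in Foxa1/2cKO 2, a log2 difference of -0.23 (SE 0.14). Again both Foxa1/2cKO samples were lower, 1 of them by about 2 FPKM. *Rpl34* and *Rpl30* were measured at under 7 FPKM and are described below with the other low members.

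The highest fitted differences were those of *Rps27*, *Rpl35a*, *Rpl31*, *Rps15* and *Fau*, and none passed the test. *Rpl35a*, a large subunit protein mutated in some patients with Diamond-Blackfan anaemia, had 144 and 149 FPKM in the control pair and 154 and 156 in the Foxa1/2cKO pair. The groups did not overlap and both Foxa1/2cKO samples stood close together, at a log2 difference of 0.08 (SE 0.08). *Rpl31* had 143 and 188 FPKM in the control pair and 187 and 159.8 in the Foxa1/2cKO pair. For *Rpl31* control 1 was the lowest and control 2 the highest sample, and the difference of 0.08 (SE 0.17) lay within the spread of the controls.

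**Figure D3:**
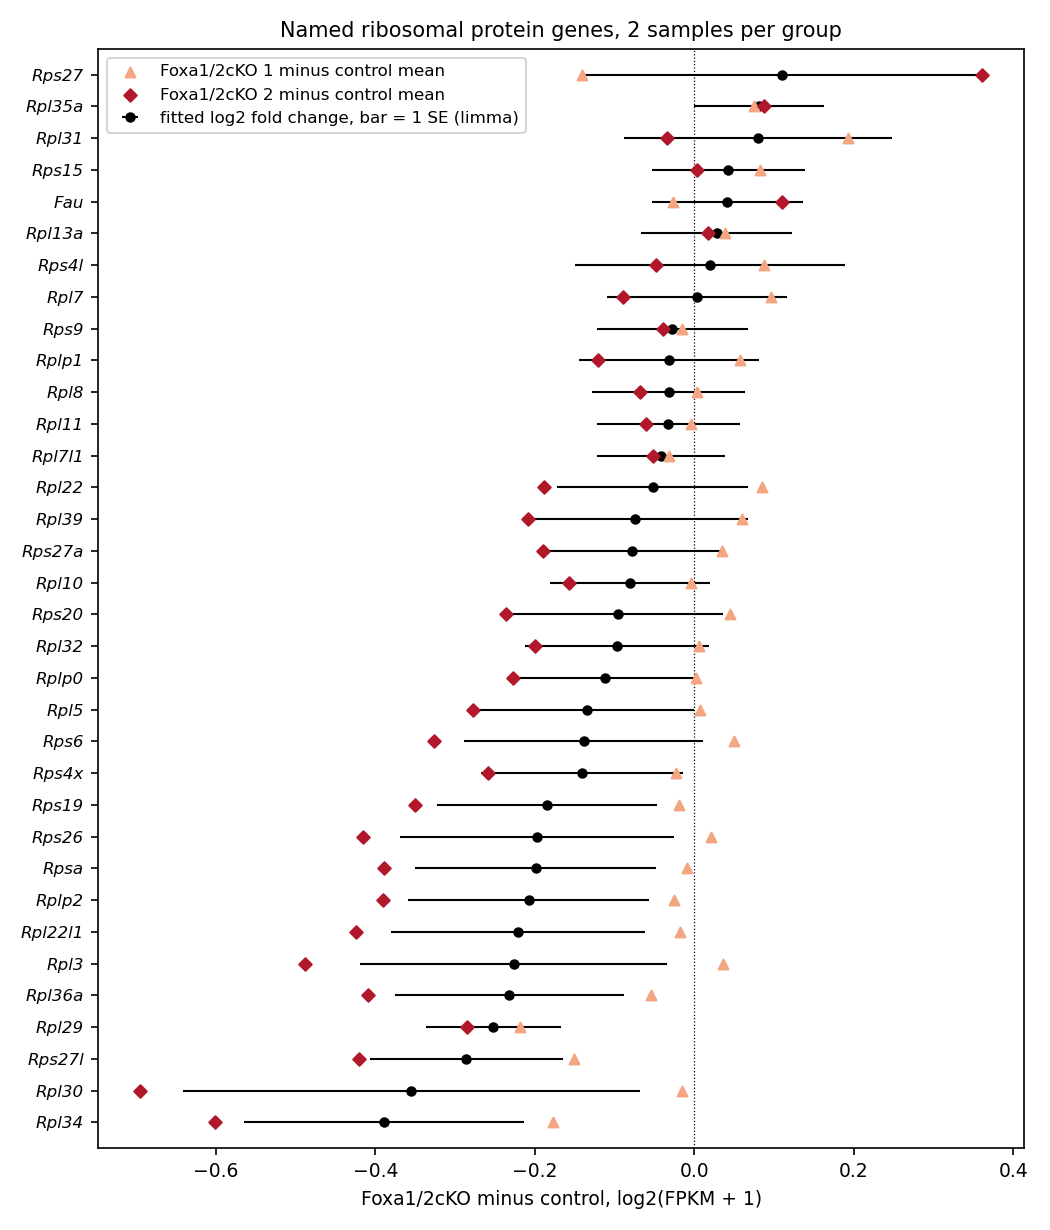
Log2 difference between Foxa1/2cKO and control (horizontal axis, on log2(FPKM + 1)) for the 34 named members that were tested, with the fitted value and 1 SE as a black point and bar and the difference of each Foxa1/2cKO sample from the control mean as coloured symbols. The red diamonds of Foxa1/2cKO 2 spread from -0.69 to 0.36, and *Rpl29* is the gene among the lowest 5 whose 2 Foxa1/2cKO samples lie closest together.

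Members are also made as fusions with a ubiquitin-like head. *Fau*, which encodes a ubiquitin-like protein joined to a small subunit protein, had 347 and 354 FPKM in the control pair and 344 and 379 in the Foxa1/2cKO pair. *Rps27a*, one of the genes that supply ubiquitin itself, had 441 and 462 FPKM in the control pair and 462 and 396 in the Foxa1/2cKO pair. In Foxa1/2cKO 2 these 2 genes stood on opposite sides of the controls, *Fau* above and *Rps27a* below.

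*Rpl5* and *Rpl11* bind the 5S ribosomal RNA and, outside the ribosome, the p53 regulator Mdm2. *Rpl5* had 111 and 126 FPKM in the control pair and 119 and 97.1 in the Foxa1/2cKO pair, and *Rpl11* had 579 and 594 in the control pair and 585 and 563 in the Foxa1/2cKO pair. Both overlapped between the groups, with log2 differences of -0.14 (SE 0.14) and -0.03 (SE 0.09). *Rpl5* had a lower level than *Rpl11* in every sample. The share of 50-base stretches also in other genes was 93.8% for *Rpl5* and 62.2% for *Rpl11*. The gene length by which reads were divided was at least 2019 bases for *Rpl5* and 594 for *Rpl11*. The part of either in the levels was not tested.

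*Rpsa*, the small subunit protein also known as a laminin receptor precursor, had 462 and 481 FPKM in the control pair, 468 in Foxa1/2cKO 1 and 359.7 in Foxa1/2cKO 2. *Rps19*, the gene most often mutated in Diamond-Blackfan anaemia, had 471 and 485 FPKM in the control pair and 472 and 375 in the Foxa1/2cKO pair. *Rps6*, the target of the S6 kinases, had 179 and 192.4 FPKM in the control pair and 192.2 and 148 in the Foxa1/2cKO pair. In all 3 genes Foxa1/2cKO 1 was between the controls and Foxa1/2cKO 2 was the lowest sample, with log2 differences of -0.20 (SE 0.15), -0.18 (SE 0.14) and -0.14 (SE 0.15).

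Paralogue pairs were compared within each sample. *Rpl22*, which is needed for the development of αβ T cells, and its paralogue *Rpl22l1* were expressed at like levels, with 105 and 109 FPKM of *Rpl22* in the control pair and 114 and 93.9 in the Foxa1/2cKO pair. *Rpl22l1* had 109 and 119 FPKM in the control pair, 112 in Foxa1/2cKO 1 and 84.5 in Foxa1/2cKO 2. Relative to *Rpl22*, *Rpl22l1* was 103% and 109% in the control pair and 98.7% and 90.0% in the Foxa1/2cKO pair. The ratio was lower in both Foxa1/2cKO samples, but the neighbouring values of the 2 groups differed by less than the controls did from each other.

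In the other pairs 1 gene made up nearly all of the signal. *Rpl7l1* was at 3.91% to 4.42% of *Rpl7*, with 35.5 to 36.9 FPKM against 810.3 to 922, and *Rps4l* at 0.539% to 0.811% of *Rps4x*, with 4.93 to 6.74 FPKM against 729 to 915. The level of *Rpl39l*, known from testis, was 2.16, 0.457, 0.575 and 0.224 FPKM beside 193 to 242 FPKM of *Rpl39*. *Rpl3l*, known from muscle, was at 0.0924 to 0.251 FPKM, and *Rpl10l*, a testis gene, was listed at 0 in all 4 samples beside 417 to 477 FPKM of *Rpl10*. *Rpl39l* was thus higher in control 1 than in the other 3 samples, at 26 reads or more there. None of *Rpl39l*, *Rpl3l* and *Rpl10l* passed the filter on low values.

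A few members with a known role in every ribosome were nearly absent from the values. *Rpl26* was listed at 0 in all 4 samples. *Rps27* had 3.72 and 5.51 FPKM in the control pair and 4.03 and 6.11 in the Foxa1/2cKO pair, below its paralogue *Rps27l* in each sample. *Rpl30* had 3.63 and 5.18 FPKM in the control pair and 4.29 and 2.30 in the Foxa1/2cKO pair, and *Rpl34* had 6.50 and 6.84 in the control pair and 5.78 and 4.06 in the Foxa1/2cKO pair. These 4 levels were far below the median of 450.5 FPKM over members. The difference of *Rpl34* was the lowest of all members at -0.39 (SE 0.18), with both Foxa1/2cKO samples below both controls, and that of *Rpl30* was -0.35 (SE 0.29). The difference of *Rps27* was the highest of all members at 0.11 (SE 0.25), with overlapping groups. Both extremes of the fitted differences were therefore low members. In their lowest sample *Rpl34* and *Rpl30* had at least 31 and 16 reads, both in Foxa1/2cKO 2, and *Rps27* had at least 25, in Foxa1/2cKO 1.

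Many members share sequence with processed copies and other genes, and the reads of such stretches may not be assigned to one gene. For 48 of the 85 members at least 50% of the 50-base stretches of the transcript also lay in another annotated gene. Stretches were compared on either strand, and the other genes include any that overlap the exons of the member itself. Other genes overlapped 24.8% of the exon bases of *Rpl30* and 26.7% of those of *Rpl5*. For *Rpl26*, *Rps27* and *Rpl34* this overlap was 0%. Of the stretches of *Rps27* 98.6% lay in *Rps27rt*, which was itself listed at 0. The share was 71.3% for *Rpl26*, 79.2% for *Rpl30* and 50.6% for *Rpl34*. Other members with shares over 90% had high levels, such as *Rpl9* (93.3% and a mean of 602 FPKM) and *Rpl10* (92.1% and a mean of 453 FPKM), and across the 85 members the Spearman rho between the share and the mean FPKM was 0.01. The part of shared sequence in the low values was not tested. The length of a gene, by which its reads are divided, was read from the steps of the values. *Rps15a* had 75.4 to 92.2 FPKM with a length of at least 5134 bases, and held at least 6453 reads in control 1. The part of length in its level was not tested.

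**Figure D4:**
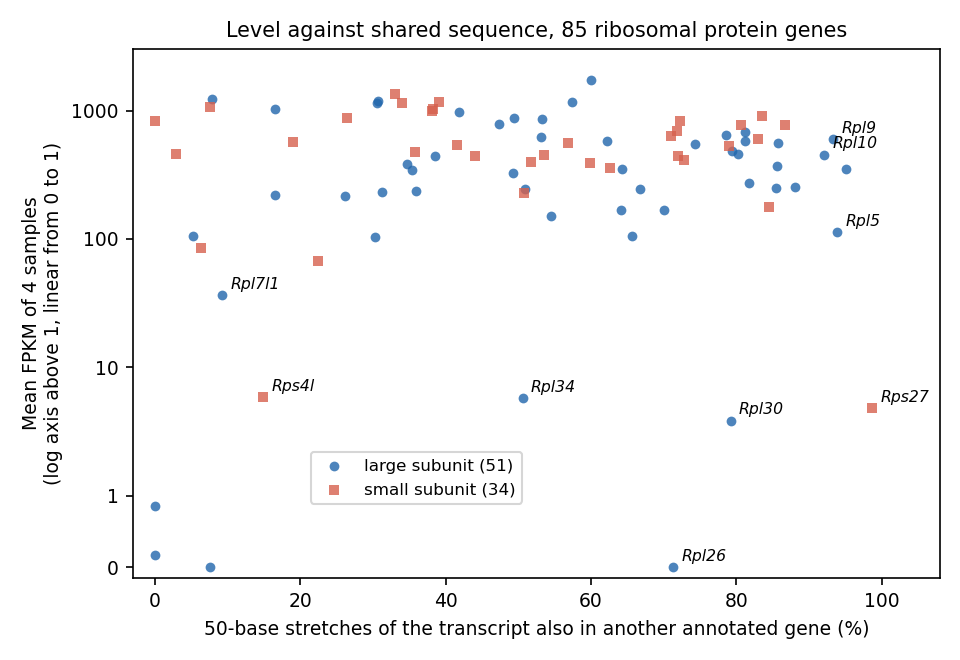
Mean FPKM over the 4 samples (vertical axis, logarithmic above 1 and linear from 0 to 1) against the percentage of 50-base stretches of the transcript that another annotated gene also holds (horizontal axis), 1 point per member. *Rpl26*, *Rps27*, *Rpl30* and *Rpl34* lie far below most members, among them *Rpl9* at 602 FPKM with a percentage of 93.3.

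Other genes were read beside the ribosomal proteins from lists chosen by their known function. The TOP list held 32 genes known for TOP starts, and their starts were not checked here. It held elongation factors and subunits of eIF3, and also genes of other function, such as *Npm1*, *Cox7c* and the non-coding *Snhg1* and *Gas5*. None of the 32 had an adjusted p under 0.05 in limma. At an unadjusted p under 0.05 in that fit, 3 were lower (9.38%, against 2.15% of all genes). A lower mean in Foxa1/2cKO was found for 24 (75%, against 48.7% of all genes). Those 3 at an unadjusted p under 0.05 were *Ncl*, *Fbl* and *Hnrnpa1*, none of them an elongation or initiation factor. *Fbl*, the methyltransferase of ribosomal RNA processing, had 40.5 and 48.6 FPKM in the control pair and 34.8 and 29.1 in the Foxa1/2cKO pair. *Ncl*, which encodes the nucleolar protein nucleolin, had 99.5 and 106 FPKM in the control pair and 86.5 and 78.5 in the Foxa1/2cKO pair. *Hnrnpa1*, a splicing factor, had 11.4 and 13.0 FPKM in the control pair and 8.75 and 8.27 in the Foxa1/2cKO pair. For all 3 the groups did not overlap, and the adjusted p of each was 0.863 by limma with Benjamini-Hochberg adjustment. The study, by another test on counts, reported *Hnrnpa1* as significantly lower in Foxa1/2cKO. *Eef1a1*, the elongation factor that brings aminoacyl-tRNA to the ribosome, had 2729 and 2787 FPKM in the control pair, 2891 in Foxa1/2cKO 1 and 2311 in Foxa1/2cKO 2, which is the order of *Rplp1*.

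The 77 mitochondrial ribosomal protein genes, which build the separate ribosome of mitochondria, summed to 2428 and 2465 FPKM in the control pair and 2395 and 2417 in the Foxa1/2cKO pair. Their median log2 difference was -0.02, 42 of 77 had a lower mean (54.5%, against 48.7% of all genes), and 1 was lower and none higher at an unadjusted p under 0.05 in limma, against 2.15% of all genes lower and 2.39% higher. In Foxa1/2cKO 2 their sum was 98.8% of the control mean, beside 89.8% for the large and 88.6% for the small cytosolic subunit and 90.5% for the TOP list. The difference between the lists was not tested.

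Markers of other cell states moved with Foxa1/2cKO 2. The summed FPKM of the 8 cycling markers was 97.0% and 103% of the control mean in the control pair, 111% in Foxa1/2cKO 1 and 35.3% in Foxa1/2cKO 2, where all 8, *Mki67* and *Top2a* among them, were lowest. Of 5 markers of mature SP thymocytes 4 were lowest there, and the list stood at 72.0%. The 13 CD69+DP markers stood at 98.6% in Foxa1/2cKO 1 and 126% in Foxa1/2cKO 2, where 10 of them were highest. The part of these markers in the lower ribosomal protein values of Foxa1/2cKO 2 was not tested. Of the cell types that a sort can carry over, the summed FPKM of 5 B cell markers reached 104 in Foxa1/2cKO 1, where all 5 were highest, against 50.3 to 75.6 in the other samples. The sum of 6 myeloid markers was 36.4 to 38.8 in the other 3 samples and 24.0 in Foxa1/2cKO 2, which is 63.8% of the control mean, and 4 of them were lowest there. Their part in the ribosomal protein values was not tested. The sum of 6 thymic epithelial markers was 3.18 to 4.18 and that of 6 erythroid markers 0.608 to 2.67, both highest in Foxa1/2cKO 1. All 4 globin genes were listed at 0, as was *Rpl26*, so a listed 0 does not show that a gene is absent. The sum of 18 genes of dissociation stress was 1826 and 1709 FPKM in the control pair and 1615 and 1696 in the Foxa1/2cKO pair. This sum hides moves in both directions. Of the 14 tested, 6 were highest in Foxa1/2cKO 2, *Btg2* among them, and 5 were lowest there, *Hsp90ab1* among them.

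**Figure D5:**
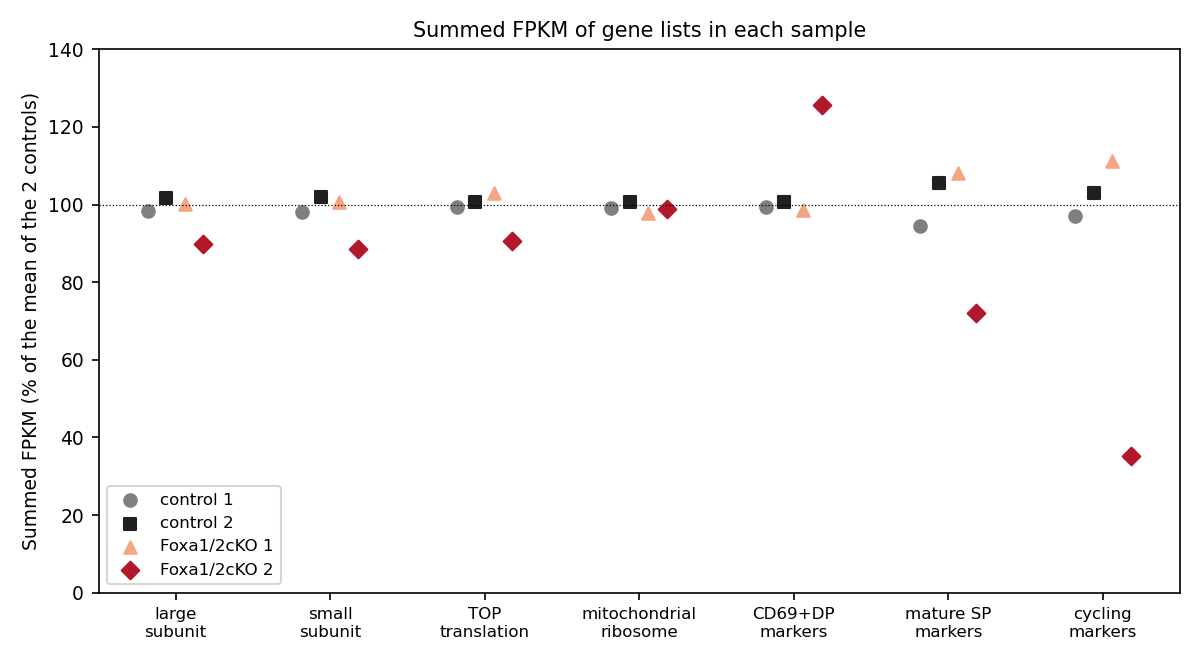
Summed FPKM of 7 gene lists in each sample, as a percentage of the mean of the 2 controls (vertical axis, from 0), with the dotted line at 100%. In Foxa1/2cKO 2 the large and small subunit lie at 89.8% and 88.6%, the mitochondrial ribosome at 98.8% and the cycling markers at 35.3%.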

How the data were processed

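RNA of sorted CD69+DP thymocytes was sequenced in 2 control and 2 Foxa1/2cKO samples. Per the study's methods, the reads were aligned to mm10, and the authors obtained gene counts over the RefSeq annotation from HTSeq (union mode), while the submitters' processing notes name TopHat, Picard and DESeq2. The deposited values are FPKM per gene and sample, with a scaling between samples already applied by the authors. Since these are not counts, limma 3.58.1 (R 4.3.3) was run on log2(FPKM + 1), with a mean-variance trend, on genes that reached an FPKM of 1 in 2 samples or more, with Benjamini-Hochberg adjustment over all 10776 genes at 0.05. The pseudocount makes fold changes of low genes too small. The study instead tested counts by DESeq2 and re-estimated the p-values, so its called genes and those given here need not be the same. The fit had 2 residual and 2.69 prior degrees of freedom. P-values measure the spread between samples sorted from different mice.

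Reads were recovered from the steps between values of a gene, for 99.99% of the 16069 genes with any value above 0 (whole within 0.01 reads), and are given as the smallest whole reads, since a common divisor cannot be seen. They cover counting error only. Named genes were the 5 most abundant members of each subunit, members with an unadjusted p under 0.05, the 5 highest and 5 lowest fitted differences, and members chosen by role, and the results of 2 genes are not reported here. *Rpl28*, *Rpl41*, *Rpl9*, *Rps15a* and the genes of other lists named here were chosen after their values were seen. The members and lists were chosen with earlier results of these data known. Shared sequence was counted on GENCODE M21 transcripts, and promoters came from RefSeq (GRCm38.p6). Alternatives were a pseudocount of 0.1, other filters and scalings, a replicate block, a length correction, no trend and leaving out each sample. Python 3.11.15, pandas 2.3.3, scipy 1.17.1 and matplotlib 3.10.9 were used for tables and plots.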

Additional observations from a re-analysis of the deposited data

How the results depend on the processing

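No ribosomal protein gene had an adjusted p under 0.05 (limma, Benjamini-Hochberg) under any alternative that kept all 4 samples, where the lowest adjusted p of a member was 0.835. Leaving out 1 sample gave 0 to 35 such genes, with 35 reached without Foxa1/2cKO 1, and a median log2 difference of -0.17 to 0.0027, against -0.08 with all samples. Members at an unadjusted p under 0.05 numbered 1 with all samples and 0 to 52 with 1 left out. The study's methods give 2 mice of each genotype per sort. The labels give both groups the replicate numbers 1 and 2 but no sort day, and whether samples of the same number shared a sort is not known. They were not taken as pairs: deviations of same-numbered samples correlated at -0.06 across all genes tested. The limma fit with a replicate block gave 0 members at an adjusted and 0 at an unadjusted p under 0.05. Without the block 1 member had an unadjusted p under 0.05, and both counts were the same with the length correction. Over all 10776 genes the block gave 1 at an adjusted and 378 at an unadjusted p under 0.05, against 1 and 490 without it.

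The median stayed between -0.11, with scaling to all recovered reads (an alternative chosen after seeing the data), and -0.05, with the length correction, while the all-gene median moved by at most 0.03. The ratio of summed FPKM was 0.948 and kept its direction in each scaling. Members with both Foxa1/2cKO samples below both controls numbered 17, and 11 when FPKM were scaled to the other genes. Those above both numbered 2, and 1 with upper-quartile scaling or an equal sum over all genes, 0 when scaled to the other genes or to recovered reads, and 6 with the length correction. With 1 sample left out these counts were 19 to 69 and 3 to 22.

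The sign of *Rpl7* turned with upper-quartile scaling (-0.017), an equal sum over all genes (-0.0071) or over the other genes (-0.018) and recovered reads (-0.031), and so did those of *Rpl13a* (-0.0071) and *Rps4l* (-0.0096) with recovered reads. With the length correction *Rplp1* (0.020), *Rpl8* (2.06e-05), *Rps9* (0.0022) and *Rpl11* (0.0018) turned positive. The cause of these changes was not tested, and none of these genes was called. With 1 sample left out, the log2 difference ranged from -0.12 to 0.28 for *Rpl31*, -0.14 to 0.36 for *Rps27*, -0.090 to 0.096 for *Rpl7*, -0.21 to 0.060 for *Rpl39*, -0.17 to 0.21 for *Rps4l*, -0.12 to 0.057 for *Rplp1*, -0.068 to 0.0027 for *Rpl8*, -0.20 to 0.0059 for *Rpl32*, -0.24 to 0.045 for *Rps20*, -0.42 to 0.020 for *Rps26*, -0.027 to 0.11 for *Fau*, -0.23 to 0.0020 for *Rplp0*, -0.28 to 0.0075 for *Rpl5*, -0.19 to 0.034 for *Rps27a*, -0.19 to 0.085 for *Rpl22*, -0.49 to 0.035 for *Rpl3* and -0.33 to 0.049 for *Rps6*. Across the named members, 356 of 370 differences under the alternatives with all samples kept their sign. With 2 samples per group, a difference near the SE of a single gene was not detectable.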

Other observations

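Among genes close to the ribosomal proteins but outside the symbol rule, the groups overlapped for *Rpl36al* and *Gnb2l1*. *Rpl36al*, a paralogue of *Rpl36a*, had 115 and 111 FPKM in the control pair and 110.2 and 120.5 in the Foxa1/2cKO pair, so that its level was 44.4% and 40.4% of that of *Rpl36a* in the control pair and 43.0% and 60.2% in the Foxa1/2cKO pair. *Gnb2l1*, the small subunit scaffold also known as Rack1, had 980.0 and 1009.6 FPKM in the control pair and 997 and 943 in the Foxa1/2cKO pair.

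Of 20 ribosome-associated and assembly genes, 15 had a lower mean in Foxa1/2cKO (75%, against 48.7% of all genes), with a median log2 difference of -0.05. None had an unadjusted p under 0.05 in limma, against 2.15% of all genes lower and 2.39% higher. Their summed FPKM was 100.3% of the control mean in Foxa1/2cKO 1 and 94.9% in Foxa1/2cKO 2. *Nob1*, the nuclease that finishes the small subunit RNA, had 30.6 and 29.8 FPKM in the control pair and 24.6 and 27.1 in the Foxa1/2cKO pair. *Larp1*, which binds TOP mRNAs, had 47.8 and 49.9 FPKM in the control pair, 47.6 in Foxa1/2cKO 1 and 36.4 in Foxa1/2cKO 2. Among copies of ribosomal protein genes, *Rpl37rt* had 13.9 to 21.2 FPKM and *Rpl14-ps1* had 21.3 to 29.7 FPKM, while *Rps27rt* and *Rpl34-ps1* were listed at 0 in all 4 samples. These genes were chosen after their values were seen.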
